A study of Mus with 2 samples.

Results

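The retinoic acid receptors (RARs, encoded by Rara, Rarb and Rarg) and the retinoid X receptors (RXRs, encoded by Rxra, Rxrb and Rxrg) were followed in macrophages that had been given a synthetic agonist of FXR, the farnesoid X receptor. The 6 genes are all known members of both receptor families in the mouse, and the families were chosen with earlier results of these arrays known. They were found on the array through the transcript accession of each probe, and had 10 probes among the 39429 probes of the array. All 6 genes had at least 1 probe above background, out of 13532 such genes among the 20144 genes matched by name.

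RARs are nuclear receptors that bind all-trans retinoic acid, the active form of vitamin A, and act on DNA as heterodimers with an RXR. Without ligand an RAR holds corepressors such as NCoR on the gene, and with ligand it exchanges them for coactivators. RXRs are the shared partner of many other nuclear receptors, among them FXR, the LXRs, the PPARs and the vitamin D and thyroid hormone receptors. Rarb is itself a classical retinoic acid target, since its promoter carries a retinoic acid response element, and macrophages and dendritic cells can make retinoic acid from retinol.

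The cells were bone marrow-derived macrophages (BMDMs) from male C57BL6/J mice of 10 weeks of age, grown for 7 d with 10 ng/mL of M-CSF. Both groups then received 10 ng/mL of IL-4, the cytokine of M2 polarization, for 24 h, together with the solvent DMSO in one group and with 10 µM of GW4064, the FXR agonist, in the other. There was 1 array per group, so that no value below has a replicate error and no test between the conditions was possible. The label of the GW4064 sample names GW4064 in its title and treatment, although its free-text description repeats the wording of the DMSO sample.

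Each array reads Cy3-labelled RNA as the brightness of 43020 spots, most of them 1 probe each, and both arrays lay on 1 slide. Differences are given as log2 of the GW4064 signal over the DMSO signal, after both arrays had been set equal at their 75th percentile, which stood at 1209 in the DMSO array and at 1265 in the GW4064 array. A probe counted as measured where the scanner software called it well above background, which held for 57.4% of the probes with DMSO and 58.5% with GW4064. As a measure of precision, each signal is given with the software's own error of the spot (written ±), and the SD of the log2 difference over probes that were printed 10 times had a median of 0.079. Neither covers the variation between cultures. For bright probes the software error was nearly constant, at 0.20 on the log2 scale for Rarg, Rxrb and Rxrg. The SD over copies at their levels was smaller, at 0.070 to 0.073. A difference of at least 2-fold was used as the threshold of size, and genes past it were 276 (2.04%) higher and 367 (2.71%) lower with GW4064.

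Of the 6 receptor genes, 1 was at least 2-fold higher with GW4064, namely Rarb, against 2.04% of all measured genes, and 0 were at least 2-fold lower, against 2.71%. The other 5 receptor genes differed by at most 0.28 on the log2 scale. Counted by sign, 4 of the 6 were higher and 2 lower, with a median log2 difference of 0.044 beside 0.0068 over all measured genes, but with centring on the spike-in probes, which lowers each gene by 0.19, only Rarb was higher and the other 5 were lower. The number past 2-fold in each direction was the same with that centring.

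**Figure D1:**
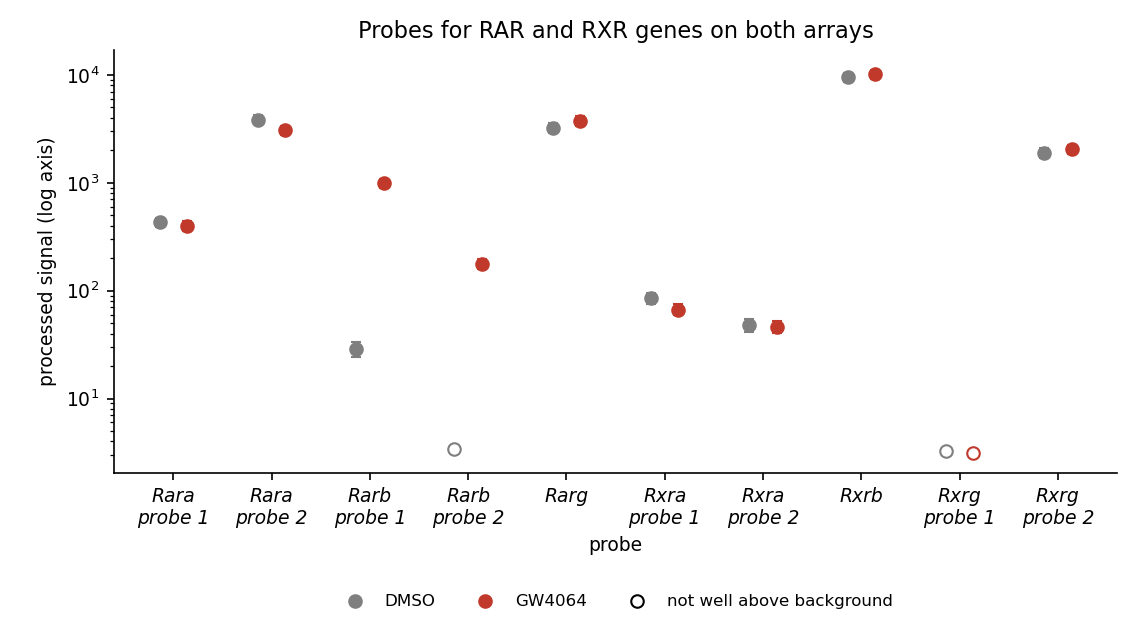
Processed signal (log axis) of each of the 10 probes for RAR and RXR genes given DMSO (grey) or GW4064 (red), with bars for the software's error of 1 spot and open circles for signals not well above background. The 2 Rarb probes are the pairs that lie far apart, at 28.8 and 985 and at 3.43 and 177, while the pairs of the other genes lie next to each other. Levels cannot be compared from probe to probe.

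Among the RARs, Rarb encodes retinoic acid receptor beta. Its probe A_55_P1962154 had a signal of 28.8 ± 4.53 on the DMSO array, close above the lowest signal called above background there (15.7), and of 985 ± 98.6 on the GW4064 array. The log2 difference was 5.03, or 32.7-fold, with a software error of 0.27 on the log2 scale. For probes of this mean level, the SD between copies of 1 probe was 0.114. This level is the mean over both arrays, far from the signal on either. At the level of the Aldh1a1 probe (42.0 and 24.2), closer to the DMSO signal of Rarb, that SD was 0.28. With its signal close above the lowest one called, the DMSO array was near its detection limit for the Rarb probe, and the GW4064 array far above it.

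The second Rarb probe, A_55_P2084807, gave 3.43 on the DMSO array, which was not well above background, and 177 ± 18.0 on the GW4064 array. Its difference is therefore a bound, at least 10.8-fold higher with GW4064 (log2 of 3.43), and was 5.63 on the log2 scale when the measured values were used without the bound. Both probes were higher with GW4064, and both were annotated to the same 1 of the 4 curated transcripts of Rarb. The probe sequences were not at hand, so whether the probes tell its isoforms apart is not known.

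Taken over both probes, with the bound in place for the second, Rarb was 4.23 higher on the log2 scale, or 18.8-fold. This ranked 1 of 13532 measured genes by increase, a place that depends on the treatment of dim signals, since bounded genes have no upper limit. Without bounds Rarb ranked 5 in the deposited log2 table and 3 with no filter on dim probes, with Cyp26b1 above it at 5.75 in both, and with the normexp background correction it ranked 5. Among genes with probes above background on both arrays, over those probes alone, it ranked 1 of 12578. Of the genes whose probes were above background on both arrays, those closest to the first Rarb probe were Arg1, Camkk1 and Mfng. Arg1, which encodes the arginase of M2 macrophages, went from 4875 to 72297, a log2 difference of 3.82 and 1.21 below the Rarb probe. Camkk1, which encodes a kinase that acts on other calmodulin-dependent kinases, went from 43.8 to 527, a log2 difference of 3.52. Mfng, which encodes a glycosyltransferase that modifies Notch receptors, differed by 3.37 and 3.65 with its 2 probes, the second of which lay near 3 other spots that differed 8-fold or more between the arrays.

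Such spots numbered 577 in all. A spot with 2 or more others of them within 300 µm was taken as lying in a damaged area of the slide. The spots of the 10 receptor probes had 0 or 1 within 300 µm. Within 1000 µm, however, the second Rarb spot had 29, where the median spot had 3 and 5.67% of spots had as many or more, and the first Rarb spot had 2. Their part in the value of the second probe was not tested. The median log2 difference of the spots around each Rarb probe was -0.17 for the first and -0.015 for the second.

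Rara and Rarg encode the other RARs, alpha and gamma. For Rara, probe A_55_P2095342 read 428 ± 43.0 with DMSO and 399 ± 40.0 with GW4064, a log2 difference of -0.17. Probe A_55_P2095345 of the same gene read 3853 ± 385 and 3077 ± 308, a log2 difference of -0.39. Both probes were lower with GW4064, and they differed from each other by 0.22, within the combined software error of 0.29. The SD between copies at the levels of these probes was 0.077 and 0.073, smaller than either difference. The mean of -0.28 was 1.94 times its own software error, and 23.6% of all measured genes had a larger difference in either direction.

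The single Rarg probe, A_55_P2151056, read 3237 ± 324 with DMSO and 3739 ± 374 with GW4064. Its log2 difference of 0.14 lay within its software error of 0.20, although above the copy SD of 0.073, and it was -0.048 with spike-in centring. Of all measured genes 45.2% had a larger difference. Whether Rarg differed thus depends on the measure of precision and on the centring, and was not tested.

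**Figure D2:**
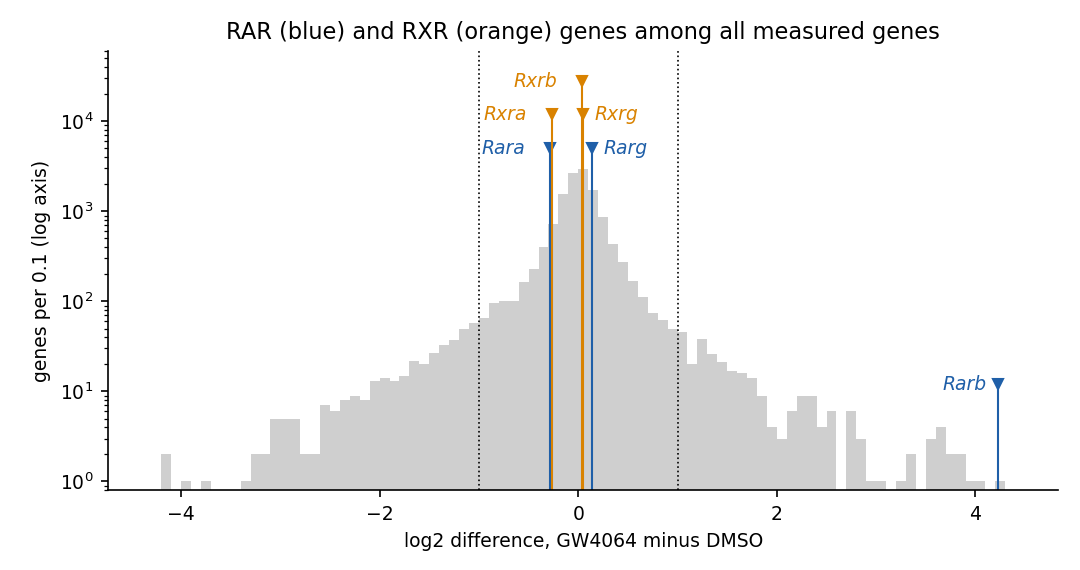
Histogram of the log2 difference (GW4064 minus DMSO, x axis) of all 13532 measured genes in bins of 0.1, with the number of genes on a log axis, RAR genes marked in blue and RXR genes in orange, and dotted lines at 2-fold. Rarb at 4.23 lies at the far right end, and the other 5 genes lie between -0.28 and 0.14, in the body of the distribution. With spike-in centring every marker moves down by 0.19, which places Rarg, Rxrb and Rxrg below 0.

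RXRs are the partners with which both RARs and FXR form heterodimers on DNA. For Rxra, probe A_51_P307370 read 85.0 ± 9.31 with DMSO and 66.9 ± 7.55 with GW4064, a log2 difference of -0.41 with a software error of 0.23. Probe A_55_P2074331 read 47.9 ± 6.31 and 46.0 ± 5.89, a log2 difference of -0.12 with an error of 0.27. Both probes were dim, where copies of 1 probe vary more (an SD of 0.142 and 0.205 at these levels), and the gap of 0.29 between them was within its error of 0.35. The mean for Rxra was -0.27, which 24.8% of all measured genes exceeded in size.

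The Rxrb probe, A_55_P2008609, read 9466 ± 947 with DMSO and 10174 ± 1017 with GW4064. Its log2 difference was 0.038, below both the software error of 0.20 and the copy SD of 0.071, and 82.5% of the measured genes differed by more. It became -0.15 with spike-in centring.

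The 2 probes for Rxrg did not give the same picture. Probe A_55_P2044359 read 1897 ± 190 with DMSO and 2054 ± 205 with GW4064, a log2 difference of 0.049 within an error of 0.20. Probe A_51_P513311 read 3.27 and 3.11, and was above background on neither array. Both probes were annotated to the same 1 of the 2 curated transcripts of Rxrg, and the presence of Rxrg RNA rests on 1 probe. With spike-in centring its difference was -0.14.

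Ordered by the probes above background on both arrays, the differences ran from Rarb (5.03) through Rarg (0.14), Rxrg (0.049) and Rxrb (0.038) to Rxra (-0.27) and Rara (-0.28). The gap between Rarb and Rarg was 4.89, with a combined software error of 0.34. From Rarg to Rxrg the gap was 0.094 and from Rxrg to Rxrb 0.011, each with an error of 0.29, and from Rxra to Rara it was 0.013 with an error of 0.23. These gaps lay within the software error, which was larger than the scatter of copies. The gap of 0.31 between Rxrb and Rxra was slightly larger than its error of 0.27.

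Other nuclear receptors that pair with RXR were also read, as a list of 13 genes, of which 10 were measured. Past 2-fold were 0 genes in either direction, against 2.04% of all measured genes higher and 2.71% lower. By sign 1 was higher and 9 were lower, beside 6985 higher and 6521 lower over all measured genes. The median was -0.23. With spike-in centring all 10 were lower. The largest difference was that of Nr4a1, which encodes the orphan receptor Nur77, from 439 to 262, a log2 difference of -0.81 with 4 spots of 8-fold difference within 300 µm. Nr1h4, which encodes FXR, read 3.46 with DMSO and 3.24 with GW4064 and was above background on neither array; 4 spots with 8-fold differences lay within 300 µm of it. The receptor of the agonist was therefore not detectable at the sensitivity of this probe, and a signal below background does not show that the transcript is absent.

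Of the LXRs, which pair with RXR and are activated by oxysterols, Nr1h2 read 17153 and 16979, a log2 difference of -0.080. Nr1h3 differed by -0.47 with each of its 2 probes, from 3663 to 2763 and from 7539 to 5697. Pparg, whose product is a fatty acid receptor of M2 macrophages, had 10 copies on the array with a mean signal of 17250 and 14612, a log2 difference of -0.30 and an SD of 0.063 over the copies. These copies are technical, and the cultures behind them were 1 per condition. Nr1h3 and Pparg were thus lower by more than the copies of a probe scatter, yet by less than 2-fold. The software error of each of their probes was 0.20 on the log2 scale.

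Among the corepressors and coactivators that RARs and RXRs recruit, all 17 genes were measured. Past 2-fold were 0 in either direction, against 2.04% of all measured genes higher and 2.71% lower. The log2 differences ran from -0.24 to 0.15, with a median of -0.041. By sign 6 were higher and 11 lower, and with spike-in centring all 17 were lower. Ncor1, which encodes the corepressor NCoR, differed by -0.0088. The coactivator genes Ncoa1 and Ncoa3 differed by -0.056 and 0.040.

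**Figure D3:**
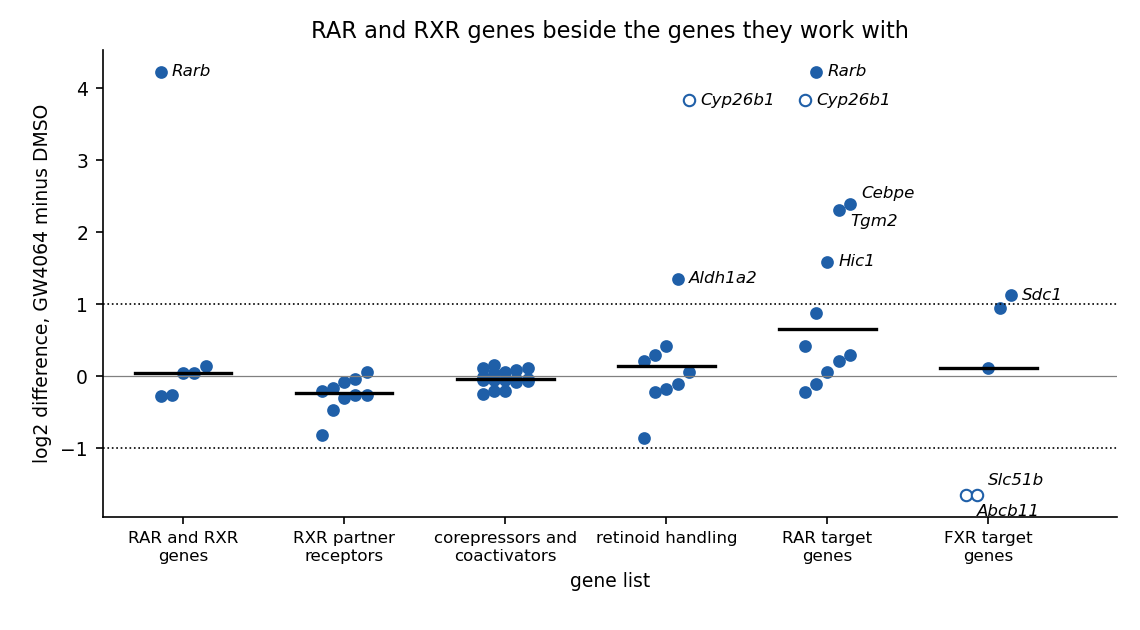
Log2 difference (GW4064 minus DMSO, y axis) of each measured gene in 6 gene lists, with a bar for the median of the list and dotted lines at 2-fold. Open circles mark genes without a probe above background on both arrays. Rarb is drawn filled, although its value of 4.23 includes the bound of its second probe. The receptors other than Rarb and the cofactors lie between -0.28 and 0.15 and the RXR partners between -0.81 (Nr4a1) and 0.060, and the genes past 2-fold upward lie mostly among the retinoic acid targets. With spike-in centring all points move down by 0.19, so the medians of the receptors, of retinoid handling and of the FXR targets fall below 0.

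Genes that take up retinol, turn it into retinoic acid, carry it or break it down formed a list of 15, of which 10 were measured. Of these, 6 were higher and 4 lower, 2 were at least 2-fold higher (2.04% over all genes) and 0 were 2-fold lower (2.71% over all genes). Of the 2, Cyp26b1 counted as measured only through its GW4064 signal, so it could only come out higher. With only probes above background on both arrays, 1 of 9 genes was 2-fold higher (Aldh1a2), beside 107 of 12578 over all genes. With spike-in centring 1 gene was 2-fold lower (Aldh1a1), as was 1 with marked spots kept (Crabp1). The median was 0.14, and -0.054 with spike-in centring and -0.029 with the normexp background correction. Aldh1a2, which encodes an enzyme that makes retinoic acid from retinal, read 237 with DMSO and 635 with GW4064, a log2 difference of 1.35. Cyp26b1, which encodes an enzyme that breaks retinoic acid down, was under background with DMSO (4.17) and read 234 with GW4064, which gives a difference of at least 14.2-fold. Its paralogs Cyp26a1 and Cyp26c1 were above background on neither array.

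Other enzymes and carriers of retinoids differed by less. Aldh1a1, an enzyme with the same reaction as Aldh1a2, read 42.0 and 24.2, a log2 difference of -0.86, with 11 spots of 8-fold difference within 300 µm of its spot. Dhrs3, which encodes a reductase that returns retinal to retinol, differed by 0.29. Crabp2, which encodes a carrier that brings retinoic acid to RARs, differed by -0.21. The spot of Crabp1 had been marked as uneven or as an outlier by the software and gave no value.

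Genes known as retinoic acid targets of RARs formed a list of 16 that includes Rarb itself, of which 12 were measured and 4 were above background on neither array. Without Rarb, 9 of 11 measured genes were higher and 2 lower, 4 were at least 2-fold higher (background 2.04%) and 0 at least 2-fold lower, with a median of 0.42. The list was written with earlier results of these arrays known, and 6 of its 15 genes other than Rarb also belong to the list of retinoid handling, so the counts are a description and not independent evidence of a direction. With spike-in centring the list had 9 genes higher and 3 lower with Rarb included, and the same 5 genes past 2-fold. Cyp26b1, measured on the GW4064 array alone, could only come out higher. With only probes above background on both arrays, 4 of 11 genes were 2-fold higher with Rarb included, beside 107 of 12578 over all genes.

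The genes past 2-fold in that list were Rarb, Cyp26b1, Cebpe, Tgm2 and Hic1. Cebpe, which encodes a transcription factor of granulocyte maturation, read 107 and 586, a log2 difference of 2.39. Tgm2, which encodes transglutaminase 2, was higher with both probes, from 18376 to 83669 and from 10030 to 58681, a mean log2 difference of 2.30. Hic1, which encodes a transcriptional repressor, read 63.0 and 199 with one probe, a log2 difference of 1.59, and was above background on neither array with the other. It was no longer past 2-fold with the normexp correction, unlike the other 4.

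Cd38, an ectoenzyme induced by retinoic acid in myeloid cells, was under the threshold at 0.88, from 22.6 to 43.5. Nrip1, which encodes a corepressor induced by retinoic acid, differed by 0.061. Cdx1, Hoxb1, Hoxd4 and Cyp26a1 had no signal above background.

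FXR targets, here genes that FXR controls directly or indirectly in liver and intestine, whether up or down, were 10. Of these, 5 were above background on neither array (Slc51a, Fgf15, Fabp6, Slc10a2 and Cyp7a1). Sdc1, which encodes syndecan 1, read 2163 and 4925, a log2 difference of 1.12 that came to under 2-fold with spike-in centring. Nr0b2, which encodes the repressor SHP, read 22.5 and 45.5, a log2 difference of 0.95 at a dim level, with 2 spots of 8-fold difference nearby. Abcb11, the bile salt export pump, was 3.15-fold lower, from 58.5 to 19.5, where the GW4064 signal was not well above background but was used as measured. Slc51b, a subunit of a bile acid transporter, was at least 3.14-fold lower, from 45.3 to 8.72. Both were measured on the DMSO array alone, and neither was past 2-fold with the normexp correction.

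Markers of other cell types differed between the arrays as well, and their part in the receptor values was not tested. In such bulk RNA, fewer cells of a type and less RNA per cell cannot be told apart. Of 8 macrophage markers 7 were measured, 4 higher and 3 lower, between -0.25 and 0.089, with a median of 0.055. With spike-in centring all 7 were lower. Their summed level was 278 and 253 times the 75th percentile signal of the DMSO and GW4064 arrays. Such a sum weights bright probes most, such as those of Csf1r (-0.24) and Adgre1 (-0.25). Of the 6 IL-4 macrophage markers 5 were higher and 1 lower, from -0.34 (Mrc1) to 3.82 (Arg1), with Chil3 at 0.066. Only 1 of them, Arg1, was at least 2-fold higher (2.04% over all genes). The sum of these 6 markers went from 219 to 326. All 7 measured stromal markers of 8 were lower (median -0.76), with a sum of 30.4 and 16.3, and all 6 measured neutrophil markers of 7 were lower (median -0.64), with a sum of 11.4 and 7.07. Of 5 dendritic cell markers 3 were measured, 2 higher and 1 lower, with a median of 0.44. Their sum of 30.4 and 29.6 was nearly all the signal of Siglech, which differed by -0.041, with Xcr1 and Clec9a above background on neither array. The T cell markers summed to 1.25 and 1.17, without Cd8a above background, and the B cell markers to 0.0296 and 0.00559, without Cd79a above background. No gene of the stromal, neutrophil, B cell or T cell lists was higher by 2-fold or more (0 genes, against 2.04% of all genes). Of the B cell genes Ms4a1, measured on the DMSO array alone, was at least 2.47-fold lower (2.71% over all genes). It read 35.8 and 7.08, and was within 2-fold with the normexp correction. With spike-in centring Col1a2 and Dcn (stromal) and S100a9, Ltf and Mpo (neutrophil) were also at least 2-fold lower. Of the dendritic cell genes Flt3, measured on the GW4064 array alone, was at least 4.94-fold higher with 1 of its 2 probes. That probe had 3 spots of 8-fold difference nearby.

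**Figure D4:**
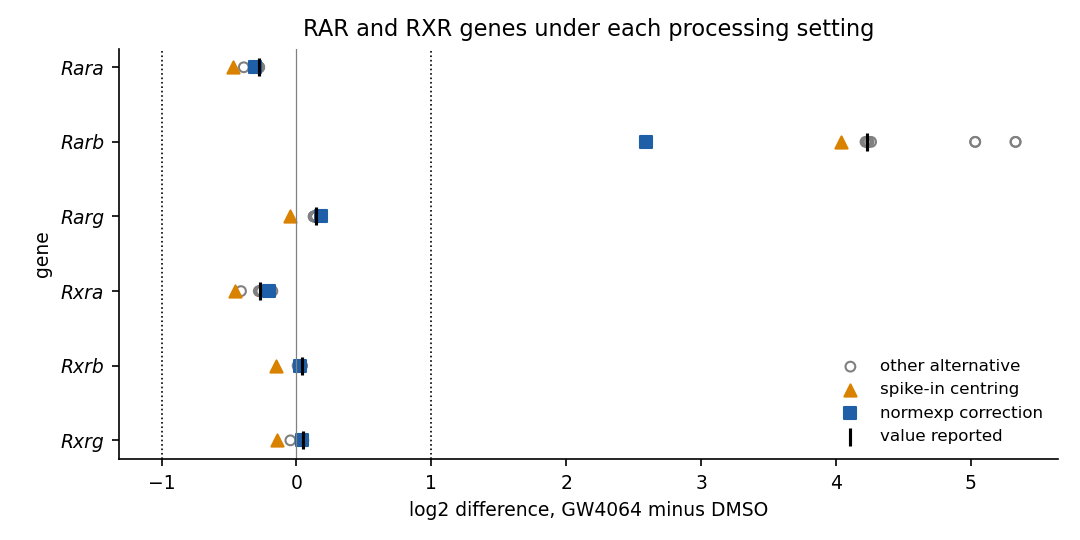
Log2 difference (GW4064 minus DMSO, x axis) of each receptor gene under the setting reported (black bar) and under 11 alternatives, 2 of which left each value as it was, with triangles for centring on the spike-in probes, squares for the normexp background correction and open circles for the others; dotted lines mark 2-fold. Rarb lies between 2.59 and 5.33 and past 2-fold in each, and the other 5 genes lie between -0.47 and 0.18, with Rarg, Rxrb and Rxrg changing sign under spike-in centring and Rxrg also without the filter on dim probes.

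The size of the Rarb difference depended on how dim signals were treated, since its DMSO signals lay near or under the detection limit. It was 2.59 with the normexp correction and an offset of 50, which raises dim signals, and 5.33 where the measured values were used without a bound. Of the 11 alternatives, 2 could not change a receptor value (keeping marked spots and leaving out damaged areas, since no receptor spot was marked or lay in one). In the other 9 Rarb was past 2-fold higher and the other 5 receptor genes were within 2-fold. Rara and Rxra were lower in these 9, between -0.47 and -0.28 for Rara and between -0.46 and -0.18 for Rxra.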

How the data were processed

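Total RNA (150 ng) of 1 DMSO and 1 GW4064 sample was labelled with Cy3 and hybridised to 1-colour Agilent mouse arrays. The files deposited for each array, written by Feature Extraction 10.7.1.1, hold the intensity of each spot after subtraction of the background and of trends within the array, not scaled between arrays. The deposited log2 table of both arrays has differences per probe equal to those computed here before any bound, apart from a constant of 0.0022. Its baseline for each probe is not given in the sources used here.

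Here the log2 processed signal minus the 75th percentile over non-control spots was used, without spots marked as non-uniform or as outliers. No spot of a receptor gene was saturated or left out. Where a probe was above background on only 1 array, its other value was raised, if below it, to the lowest signal called above background (15.7 with DMSO and 15.1 with GW4064). The fold of a raised value is written as "at least". Some signals not called above background were higher than that lowest signal, such as 19.5 for Abcb11 with GW4064. They were used as measured, so "at least" holds under this rule only. Gene values are means of the probes above background on at least 1 array. Probes were named from transcript accessions through the RefSeq table of GRCm38.p6. The array was designed on mm9, so no coordinates are given. The copy SD is the median over probes printed 10 times with a mean level within 2-fold.

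No test was made, since each condition has 1 array, which also limits the precision. Named were all receptor probes, list genes past 2-fold, Nr1h4, Nr1h2, Nr1h3, Pparg, Ncor1, Ncoa1 and Ncoa3, and the 3 genes nearest to the Rarb probe. Other list genes named with a value under 2-fold were chosen after their values were seen. The receptor genes and the lists were chosen with earlier results of these data known. Some items of the lists are not reported here. The calculation was tested on simulated data, with 200 probes planted 4-fold higher. These were all above background with DMSO, so their recovery did not touch the bound for dim signals. The bound was checked only on a small made-up example. Calculations used limma 3.58.1 in R 4.3.3 for normexp, quantile and loess, and scipy 1.17.1, pandas 2.3.3 and numpy 2.4.6 in Python 3.11.15, with figures from matplotlib 3.10.9. Alternatives were quantile, loess (span 0.3), median and spike-in centring, normexp (offset 50, on median spot intensities), the deposited table, other filters, the brightest probe, spots outside damaged areas, and thresholds of 1.5-fold and 4-fold.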

Additional observations from a re-analysis of the deposited data

How the results depend on the processing

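In the 9 alternatives that could change a receptor value, 1 receptor gene (Rarb) was at least 2-fold higher and 0 were at least 2-fold lower, and the counts were also 1 and 0 at 1.5-fold and at 4-fold. The 2 others, marked spots kept and damaged areas left out, touch no receptor spot. The log2 difference of Rarb, 4.23 as reported, was 5.03 with the brightest probe or with only probes above background on both arrays, 4.04 with spike-in centring, 5.33 with the deposited log2 table or with no filter on dim probes, both without a bound, and 2.59 with the normexp correction. The median of the 6 genes, 0.044 as reported, was -0.15 with spike-in centring, where the median of all genes was -0.18, and -0.0032 with no filter. Over all genes the counts of 276 higher and 367 lower became 211 and 522 with spike-in centring (28.8% of the changed genes higher, against 42.9%), 72 and 64 with normexp, 495 and 495 with the deposited table without a bound, 698 and 767 with no filter, 107 and 164 with only probes above background on both arrays, 168 and 202 without damaged areas, 594 and 752 at 1.5-fold, and 65 and 79 at 4-fold. No paired analysis was possible because there is 1 array per group. Depth here is signal over background: the DMSO value of Rarb rests on 1 dim probe, and Rxrg and Nr1h4 on probes partly or wholly below background.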
